A study of Mus musculus with 12 samples.

Results

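The 9 genes described here encode components and receptors of the complement system: the C1q chains (*C1qa*, *C1qb*, *C1qc*), the central components (*C3*, *C4b*), the proteases of the alternative pathway (*Cfb*, *Cfd*) and the receptors of the anaphylatoxins (*C3ar1*, *C5ar1*). They were chosen by symbol, and each of the 9 was present among the 53801 genes measured and passed the filter on low counts. RNA was sequenced from hearts of adult male C57BL/6N mice, 4 after sham surgery, 4 on day 1 after acute myocardial infarction (AMI) and 4 on day 7, with 1 library per heart. AMI was made by tying off the left coronary artery permanently, a model without reperfusion, and the labels do not say on which day the sham hearts were taken. The labels name no transgene or drug in any group. Hearts are called by their group and the replicate number in their label, which does not link hearts of different groups.

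Complement is a cascade of plasma proteins that marks damaged cells and microbes and calls in leukocytes. In the classical pathway, C1q binds antibodies or dying cells, and its partner proteases cut C4 and C2. All pathways meet at C3, whose larger fragment coats surfaces and whose smaller fragment, C3a, is an anaphylatoxin like C5a. Factor B and factor D build the convertase of the alternative pathway. The liver supplies most plasma complement, whereas macrophages are the main source of C1q, and complement is known to be deposited in infarcted myocardium.

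Counts were scaled with edgeR's TMM method and are given as CPM, counts brought to a common library total. Levels of different genes are compared only in TPM, which also allow for gene length. TPM carry no TMM factor, so group means in TPM are on another scale than the log2 FCs beside them. A gene was called changed when its groups differed at least 2-fold (fold change, FC) and its p from edgeR's quasi-likelihood test, adjusted by Benjamini and Hochberg over all 15306 genes tested, was below 0.05, and "rose" and "fell" are kept for genes so called. Log2 CPM was also compared by a two-sided exact permutation test, and 0.0286 is the smallest p it can give with 4 hearts against 4. Errors are SDs over the 4 hearts of a group. The study calls the replicates biological.

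Libraries held from 23204551 to 32166517 counts, and a count of 3, taken as the floor, was worth from 0.0933 to 0.129 CPM. Cardiomyocyte markers (*Myh6*, *Actc1*, *Tnnt2*, *Tnni3*, *Ryr2*, *Pln*) were strongly present in every heart, with a summed level from 60903 to 73296 CPM in sham hearts, 38046 to 48247 CPM on day 1 and 34512 to 38828 CPM on day 7. Some hearts stood apart from their group. The summed level of 7 neutrophil markers was 31.7 and 58.2 CPM in sham hearts 1 and 2 but 3.93 and 2.77 CPM in sham hearts 3 and 4. Among day 7 AMI hearts it was 39.0 CPM in heart 4 and from 8.15 to 12.9 CPM in the others. The 4 erythroid markers summed to 1121 and 4133 CPM in sham hearts 1 and 2 and to 462 and 545 CPM in sham hearts 3 and 4. The part of these differences in the results was not tested. In whole-heart RNA, more cells of a type and more RNA per cell cannot be told apart.

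On day 1, the receptors *C3ar1* and *C5ar1* rose, and none of the other 7 genes was called. That is 2 of 9 genes called higher, where 7.79% of all genes tested were called higher, and 0 of 9 called lower, against 2.98%. From day 1 to day 7 only *Cfb* rose, 1 of 9 genes against 8.55% of all genes, and 0 of 9 fell, against 2.69%. Between day 7 AMI and sham, *C1qb*, *C1qc*, *Cfb*, *C3ar1* and *C5ar1* were called higher, 5 of 9 genes against 15.3% of all genes, and 0 of 9 were called lower, against 5.88%. The median log2 FC of the 9 genes was 0.52, 0.89 and 1.14 in these comparisons, and that of all genes tested was −0.01, 0.02 and 0.03. Groups did not overlap for 3, 5 and 5 of the 9 genes, against 36.7%, 44.5% and 53.0% of all genes in either direction. Both comparisons with sham use the same 4 sham hearts, and both comparisons of day 1 use the same day 1 hearts. The 9 genes were chosen with earlier results of these data known, so these shares and medians are descriptions.

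**Figure D1:**
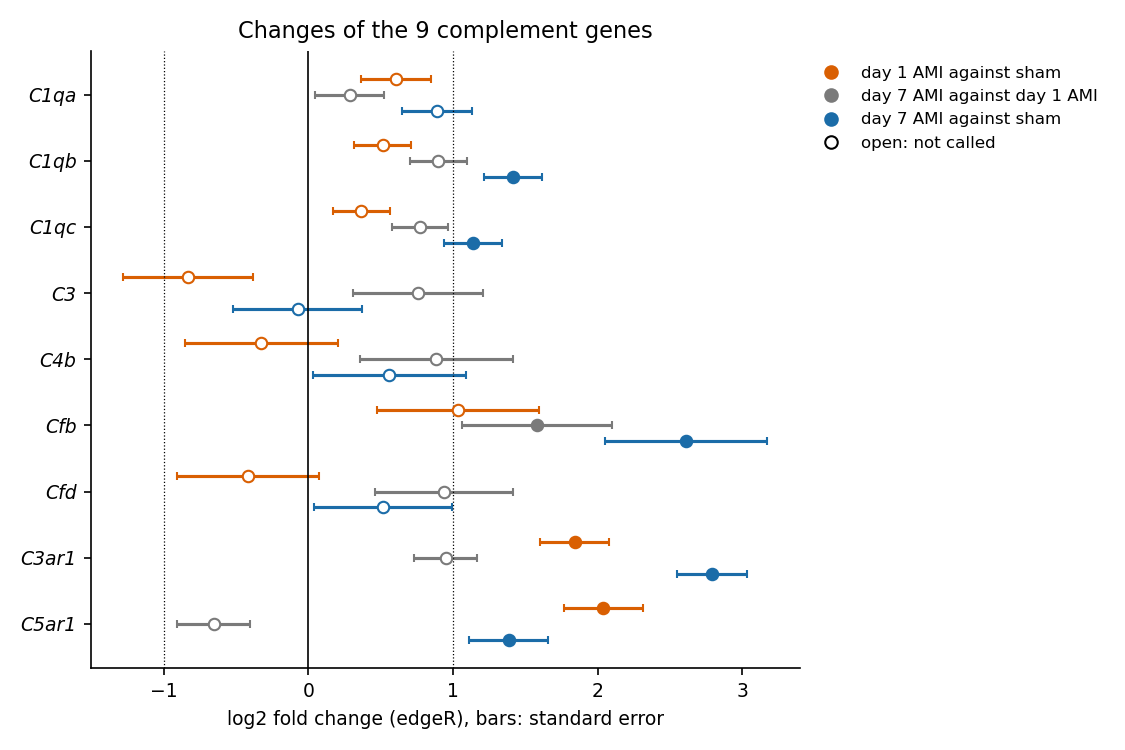
The log2 FC of each of the 9 genes (x axis, edgeR) in 3 comparisons, with bars of 1 standard error; filled points were called changed and dotted lines mark a FC of 2. The receptors lie at 1.84 and 2.04 on day 1 against sham, *Cfb* reaches 2.61 on day 7 against sham, and *C3* and *C4b* have bars of about 0.45 and 0.53 and no filled point.

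With library sizes alone in place of TMM factors, the log2 FC of the median gene moved to 0.26, 0.15 and 0.43, and the calls shifted upward with it. Over all genes, 1192 were called higher and 456 lower on day 1 against sham with TMM factors, and 1764 and 217 without them. From day 1 to day 7 the counts were 1308 and 411 with TMM factors, and 1626 and 293 without. For day 7 against sham they were 2346 and 900, and 3633 and 318. The limma fits on log2 TPM, run as alternatives, also used no TMM factors. On log2(TPM + 1) with a filter on low levels, their median gene stood at 0.27, 0.19 and 0.47. All changes below are relative to the TMM scale unless another fit is named.

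In TPM, the C1q chains and *C3* were the most abundant of the 9 genes in every group. In sham hearts the order was *C1qa* (70.2 ± 29.0 TPM), *C1qb* (70.1 ± 23.9), *C3* (69.1 ± 49.0), *C1qc* (52.9 ± 18.9), *C4b* (13.9 ± 13.9), *Cfd* (4.42 ± 3.60), *C5ar1* (3.72 ± 1.43), *Cfb* (1.96 ± 1.14) and *C3ar1* (1.68 ± 0.553). Only *C1qc* and *C4b* were neighbours in this order whose hearts did not overlap. On day 1 AMI the order was *C1qa* (132 ± 20.4 TPM), *C1qb* (125 ± 20.2), *C1qc* (84.7 ± 11.9), *C3* (45.4 ± 8.94), *C5ar1* (19.9 ± 5.39), *C4b* (13.0 ± 3.21), *C3ar1* (7.59 ± 1.58), *Cfd* (4.08 ± 0.729) and *Cfb* (3.94 ± 0.618). The neighbours that overlapped were *C1qa* with *C1qb*, *C5ar1* with *C4b*, and *Cfd* with *Cfb*. On day 7 AMI, *C1qb* led with 274 ± 68.1 TPM, before *C1qa* (190 ± 69.2), *C1qc* (170.1 ± 41.5), *C3* (99.8 ± 50.9), *C4b* (29.1 ± 15.0), *Cfb* (18.3 ± 17.1), *C5ar1* (17.4 ± 6.78), *C3ar1* (17.3 ± 4.55) and *Cfd* (9.19 ± 4.99). Here only *C3* and *C4b* were neighbours that did not overlap. *C5ar1* was thus the seventh in sham hearts and the fifth on day 1, and *Cfd* went from the sixth in sham hearts to the last on day 7.

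**Figure D2:**
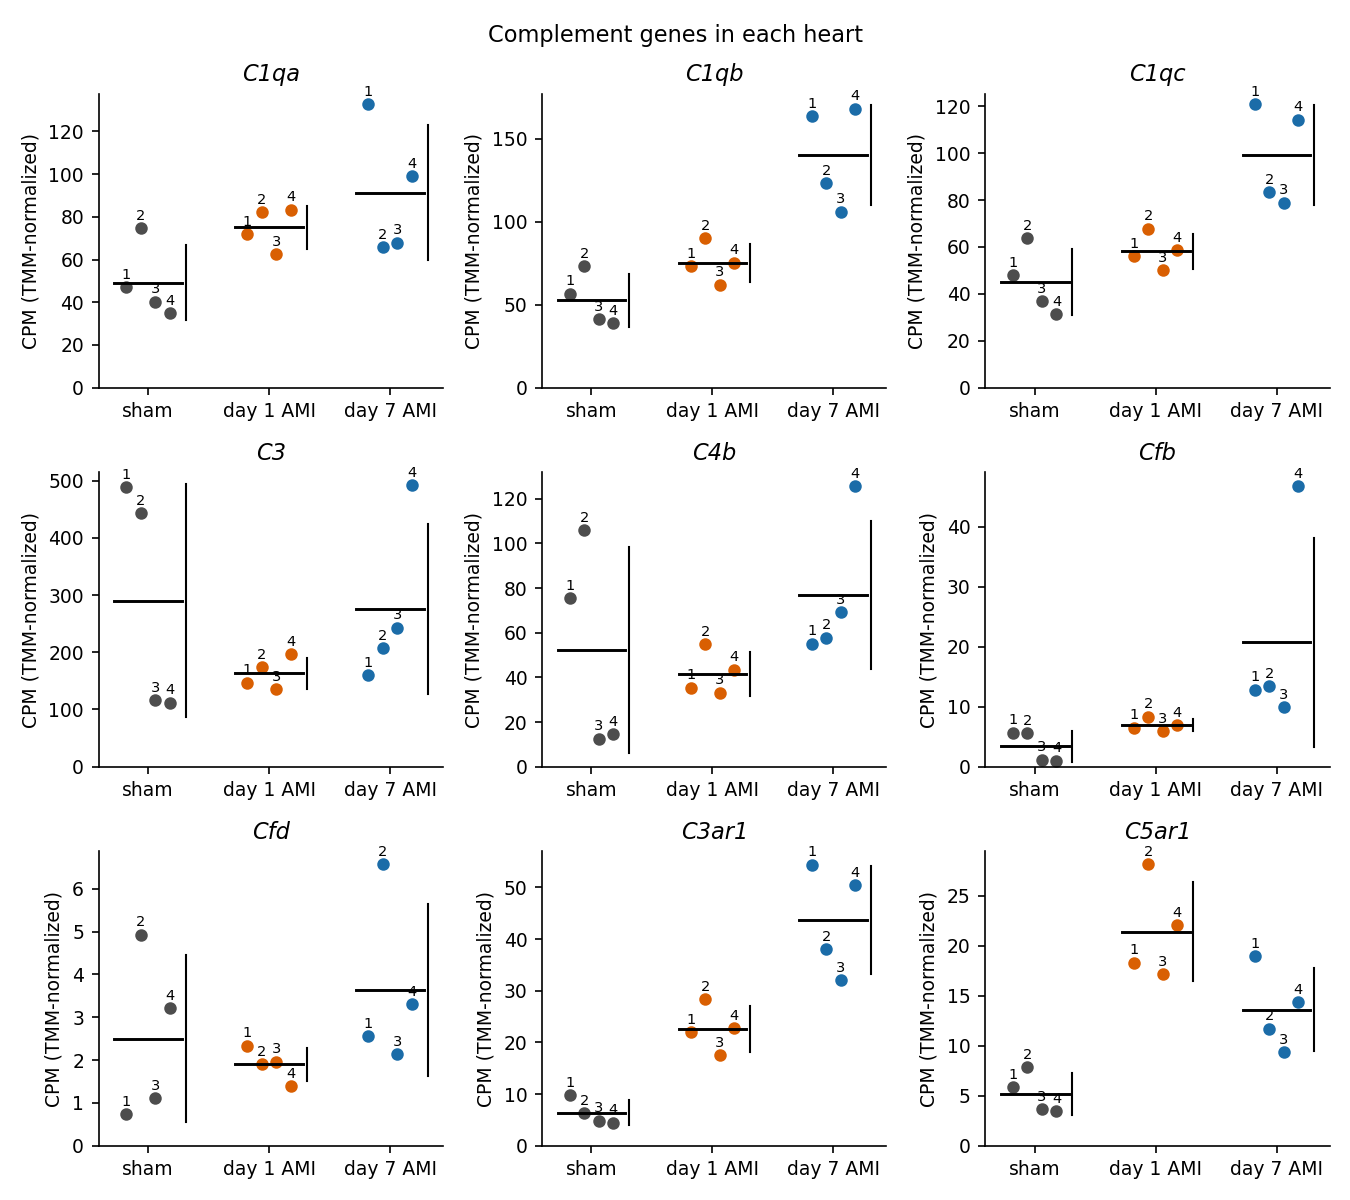
TMM-normalized CPM (y axis, from 0) of the 9 genes in each heart, numbered by replicate, of the sham group and both AMI groups, with the group mean as a horizontal line and the SD as a vertical bar. *C3ar1* climbs from 4.45 to 9.75 CPM in sham hearts to 32.0 to 54.4 CPM on day 7, *C5ar1* is highest on day 1, and in *C3*, *C4b* and *Cfb* sham hearts 1 and 2 lie well above sham hearts 3 and 4.

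The C1q chains recognise the targets of the classical pathway and assemble into 1 protein. *C1qa* (ENSMUSG00000036887, chromosome 4, 136895917 to 136898803), *C1qc* (ENSMUSG00000036896, 136889804 to 136893065) and *C1qb* (ENSMUSG00000036905, 136880129 to 136886187) lie side by side on the minus strand of GRCm38, each with 3 exons. The gaps are 2851 bases between *C1qa* and *C1qc* and 3616 bases between *C1qc* and *C1qb*. None shares a 75-base stretch of exon sequence with another gene. The 250 bases before the start of *C1qb* are shown because the C1q genes lie side by side and *C1qb* had the largest change of the 3. They are from RefSeq on GRCm38.p6, minus strand, chr4:136886201-136886450, written 5′ to 3′, and overlap no annotated exon.
C1qb: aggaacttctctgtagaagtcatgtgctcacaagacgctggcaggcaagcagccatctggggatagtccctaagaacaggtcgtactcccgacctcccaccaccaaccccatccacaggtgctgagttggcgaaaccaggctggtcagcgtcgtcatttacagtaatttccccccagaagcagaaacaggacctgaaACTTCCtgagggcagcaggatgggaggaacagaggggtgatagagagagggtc
The capitals mark ACTTCC, the reverse complement of GGAAGT, a core bound by ETS factors such as PU.1, 53 bases before the start. Windows of the same length from 32851 RefSeq promoters hold GGAAGT on either strand in 19.7% of cases. The window of *C1qc* also holds it, 195 bases before the start, and so does that of *C5ar1*, 190 and 72 bases before. Those of *C3*, *C3ar1* and *Cfd* do not, and *C1qa*, *C4b* and *Cfb* had no entry. The windows are not alike, since 151 bases of that of *C1qc* and 28 of that of *C5ar1* lie in annotated exons. The motifs were picked after the sequences had been seen, and a match is not a shown site.

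*C1qb* and *C1qc* rose between sham and day 7, by 2.67-fold and 2.20-fold, while *C1qa* fell short of the FC minimum. *C1qb* had 56.7, 73.2, 41.5 and 38.8 CPM in sham hearts 1 to 4, 73.3, 89.9, 62.2 and 75.4 CPM in day 1 AMI hearts, and 163, 123, 106 and 168 CPM in day 7 AMI hearts. Each day 7 heart was above every other heart, while sham heart 2 lay among the day 1 hearts. Means were 52.5 ± 15.9, 75.2 ± 11.4 and 140.2 ± 30.3 CPM. The log2 FC was 1.42 for day 7 against sham (standard error 0.199, edgeR adjusted p = 3.19e-05, exact permutation p = 0.0286), 0.90 from day 1 to day 7 (0.196, edgeR adjusted p = 0.00189, exact permutation p = 0.0286) and 0.52 for day 1 against sham (0.197, edgeR adjusted p = 0.0486, exact permutation p = 0.0571). The latter pair passed the adjusted p but not the FC of 2. Without day 7 heart 3, the step from day 1 to day 7 was 1.01 and was called (edgeR adjusted p = 0.00114).

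*C1qc* had 48.1, 63.7, 37.0 and 31.5 CPM in sham hearts, 56.0, 67.8, 50.0 and 58.7 CPM in day 1 AMI hearts, and 121, 83.3, 78.8 and 114 CPM in day 7 AMI hearts. As for *C1qb*, every day 7 heart was above every other heart and sham overlapped day 1. Against sham, the day 7 log2 FC was 1.14 (standard error 0.198, edgeR adjusted p = 0.000196), 0.77 from day 1 to day 7 (0.195, edgeR adjusted p = 0.00511) and 0.37 for day 1 against sham (0.197, edgeR adjusted p = 0.149). Without sham heart 4 the day 7 change was 1.00 and just under the FC minimum (edgeR adjusted p = 0.000631).

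*C1qa* had 47.1, 74.7, 40.3 and 34.9 CPM in sham hearts, 71.8, 82.4, 62.5 and 83.4 CPM in day 1 AMI hearts, and 133, 65.7, 67.9 and 99.2 CPM in day 7 AMI hearts. Sham heart 2 and day 7 hearts 2 and 3 lay within the range of the day 1 hearts, so no pair of groups was apart. Its log2 FC came to 0.61 for day 1 against sham (standard error 0.242, edgeR adjusted p = 0.0577), 0.29 from day 1 to day 7 (0.239, edgeR adjusted p = 0.346) and 0.89 for day 7 against sham (0.243, edgeR adjusted p = 0.00566). The day 7 change was called when sham heart 2, day 7 heart 2 or day 7 heart 3 was left out, at 1.16, 1.02 and 1.01, and with library sizes alone, at 1.28.

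Ratios between the chains were compared as well. Ratios of TPM within a heart were compared for 6 pairs of genes in 3 comparisons, 18 exact permutation tests in all. Their smallest p of 0.0286 became 0.0571 after Benjamini-Hochberg adjustment over these tests, so none passed 0.05. The ratio of *C1qa* to *C1qb* was 0.883, 1.08, 1.03 and 0.955 in sham hearts, 1.04, 0.973, 1.07 and 1.18 on day 1, and 0.863, 0.566, 0.680 and 0.627 on day 7. All 4 day 7 hearts had a lower ratio than the other 8 hearts. On the log2 scale the day 7 mean was 0.65 below day 1 and 0.55 below sham (exact permutation p = 0.0286 for each, adjusted p = 0.0571). The ratio of *C1qa* to *C1qc* had geometric means of 1.31 in sham, 1.56 on day 1 and 1.09 on day 7. Its day 1 hearts lay above every other heart, by 0.25 on the log2 scale against sham and by 0.52 against day 7 (exact permutation p = 0.0286 for each, adjusted p = 0.0571). The day 7 mean was 0.28 below sham with overlap (exact permutation p = 0.0857, adjusted p = 0.154). The ratio of *C1qb* to *C1qc* had geometric means of 1.33, 1.47 and 1.61, and no heart of a group overlapped another group (exact permutation p = 0.0286 in all 3 comparisons, adjusted p = 0.0571). Its day 1 and day 7 means were 0.14 and 0.27 above sham on the log2 scale, with SDs of 0.0586, 0.0397 and 0.0755 in the 3 groups.

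**Figure D3:**
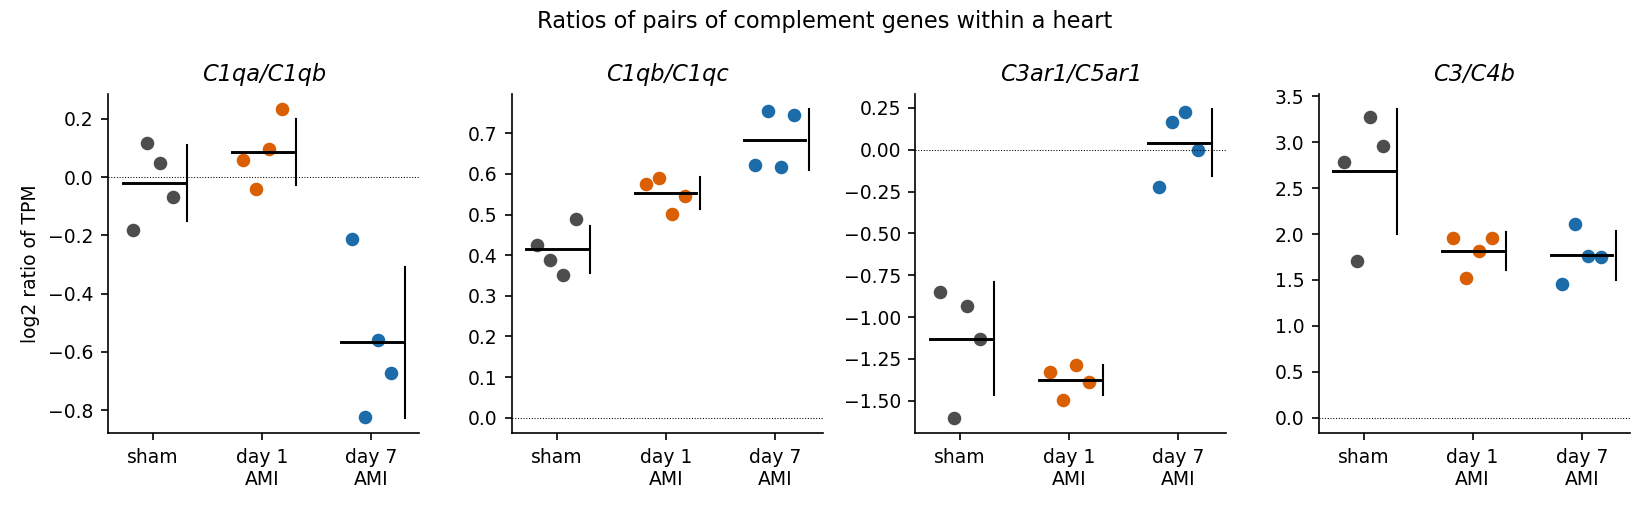
Log2 ratios of TPM within each heart (y axis, scaled separately in each panel) for 4 pairs of genes in the sham group and both AMI groups; points are hearts, horizontal lines group means and vertical bars SDs, and the dotted line is equal TPM. *C1qa*/*C1qb* has a mean of −0.57 on day 7, *C1qb*/*C1qc* steps from 0.41 to 0.55 to 0.68, *C3ar1*/*C5ar1* goes from −1.37 on day 1 to 0.04 on day 7, and *C3*/*C4b* overlaps between groups.

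*C3* and *C4b* encode homologous proteins, C3 being the component on which all pathways converge and C4 the substrate of the C1 proteases. *C3* (ENSMUSG00000024164, chromosome 17, 57203970 to 57228136, minus strand, 42 merged exons) shares no 75-base stretch with another gene. *C4b* (ENSMUSG00000073418, chromosome 17, 34728380 to 34743882, minus strand, 40 merged exons) shares 22.7% of its 75-base stretches with its paralog *C4a*, so some of its reads could belong to either gene. *C4a* itself was listed at means of 0.250, 0.523 and 0.828 TPM in sham, day 1 and day 7 hearts. The 250 bases before the start of *C3* are shown because *C3* varied most in step with *C4b* and *Cfb* within groups. They come from RefSeq on GRCm38.p6, minus strand, chr17:57228137-57228386, 5′ to 3′, outside any annotated exon.
C3: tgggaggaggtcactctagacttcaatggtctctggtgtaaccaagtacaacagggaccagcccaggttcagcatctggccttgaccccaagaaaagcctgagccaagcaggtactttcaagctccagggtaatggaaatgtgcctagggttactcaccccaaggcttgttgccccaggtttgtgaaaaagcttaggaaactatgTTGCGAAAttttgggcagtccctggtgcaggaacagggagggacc
The capitals mark TTGCGAAA, a match to TTGCNNAA, the core bound by C/EBP factors, 45 bases before the start. Among the same 32851 promoter windows, 9.56% hold TTGCNNAA on either strand, and it was in none of the other 5 windows of these genes.

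Neither *C3* nor *C4b* was called in any comparison, and the SD of log2 CPM among sham hearts, 1.17 for *C3* and 1.58 for *C4b*, was larger than any of their log2 FCs. *C3* had 488, 444, 116 and 112 CPM in sham hearts 1 to 4, 147, 173, 136 and 196 CPM in day 1 AMI hearts, and 160.3, 207, 243 and 492 CPM in day 7 AMI hearts. Sham hearts 1 and 2 were close to day 7 heart 4, while sham hearts 3 and 4 were lower than every AMI heart. The log2 FC was −0.83 for day 1 against sham (standard error 0.450, edgeR adjusted p = 0.154, exact permutation p = 0.429), 0.76 from day 1 to day 7 (0.449, edgeR adjusted p = 0.182, exact permutation p = 0.114) and −0.07 for day 7 against sham (0.447, edgeR adjusted p = 0.898, exact permutation p = 0.886). The last value turned to 0.35 with library sizes alone, to 0.72 with limma on log2(TPM + 1), and to 0.29 and 0.20 without sham heart 1 or 2.

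*C4b* had 75.5, 106, 12.6 and 14.6 CPM in sham hearts, 35.4, 54.7, 33.1 and 43.4 CPM in day 1 AMI hearts, and 55.1, 57.8, 69.2 and 126 CPM in day 7 AMI hearts. Each day 7 heart was above each day 1 heart, though the highest day 1 heart and the lowest day 7 heart were nearly level, and the sham hearts lay on both sides of the day 1 hearts. In edgeR the log2 FC came to 0.89 from day 1 to day 7 (standard error 0.530, edgeR adjusted p = 0.185, exact permutation p = 0.0286), −0.33 for day 1 against sham (0.530, edgeR adjusted p = 0.647) and 0.56 for day 7 against sham (0.528, edgeR adjusted p = 0.379). The day 1 value turned to 0.46 with limma on log2(TPM + 1) and to 0.29 without sham heart 2, and limma called the day 7 value, at 1.47 (limma adjusted p = 0.0361). In that limma fit the median gene stood at 0.27 on day 1 and 0.47 on day 7 against sham. The ratio of *C3* to *C4b* in TPM had geometric means of 6.42 in sham, 3.51 on day 1 and 3.41 on day 7, and sham heart 2, at 3.27, overlapped the AMI hearts. It was 0.87 and 0.91 lower on the log2 scale on day 1 and day 7 than in sham (exact permutation p = 0.114 for each, adjusted p = 0.171). With CPM in place of TPM, the day 7 difference was −0.94 and the groups were apart (exact permutation p = 0.0286).

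*Cfb* and *Cfd* encode factor B and factor D, the proteases of the alternative pathway. *Cfb* (ENSMUSG00000090231, chromosome 17, 34856374 to 34862518, minus strand, 17 merged exons) starts 85 bases from *C2*, the classical pathway gene of the same family, and 79.5% of its exon bases also belong to *Gm20547*, an annotated gene on the same strand. *Gm20547* was listed at 0 counts and 0 TPM in all 12 libraries, and how reads common to both were assigned is not given in the sources used here. *Cfd* (ENSMUSG00000061780, chromosome 10, 79890853 to 79892655, plus strand, 5 merged exons) shares no sequence with another gene. Both had few counts, from 21 to 1375 for *Cfb* and from 14 to 170 for *Cfd*. The lowest, 14 counts of *Cfd* in sham heart 1, has a 95% exact Poisson interval from 7.65 to 23.5, which covers counting error only.

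*Cfb* rose 6.13-fold between sham and day 7 and 2.99-fold between day 1 and day 7. It had 5.69, 5.63, 1.16 and 1.00 CPM in sham hearts, 6.50, 8.35, 5.95 and 6.91 CPM in day 1 AMI hearts, and 12.8, 13.4, 9.96 and 46.8 CPM in day 7 AMI hearts. The groups did not overlap at either step, sham hearts 1 and 2 being just below the day 1 hearts and day 7 heart 4 far above the other day 7 hearts. The log2 FC was 2.61 for day 7 against sham (standard error 0.560, edgeR adjusted p = 0.00105, exact permutation p = 0.0286), 1.58 from day 1 to day 7 (0.518, edgeR adjusted p = 0.0217, exact permutation p = 0.0286) and 1.03 for day 1 against sham (0.561, edgeR adjusted p = 0.154, exact permutation p = 0.0286), which was not called. The step from day 1 to day 7 was 0.80 without day 7 heart 4 (edgeR adjusted p = 0.148), and the call was also lost without day 1 heart 1 (1.55, edgeR adjusted p = 0.0509) or day 1 heart 3 (1.51, edgeR adjusted p = 0.0552). The change between sham and day 7 ranged from 1.83 to 3.00 with each heart left out.

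*Cfd* was not called in any comparison. It had 0.730, 4.93, 1.12 and 3.20 CPM in sham hearts, 2.33, 1.91, 1.96 and 1.39 CPM in day 1 AMI hearts, and 2.56, 6.57, 2.14 and 3.30 CPM in day 7 AMI hearts. Sham hearts spanned a 6.75-fold range that held every day 1 heart, and day 7 heart 3 was below day 1 heart 1. Log2 FCs were −0.42 for day 1 against sham (standard error 0.490, edgeR adjusted p = 0.519), 0.94 from day 1 to day 7 (0.478, edgeR adjusted p = 0.122) and 0.52 for day 7 against sham (0.477, edgeR adjusted p = 0.365). The day 1 value turned to 0.15 with limma on log2(TPM + 1) and to 0.16 without sham heart 2, and limma called the day 7 value, at 1.05 (limma adjusted p = 0.0386). As above, the median gene of that limma fit stood at 0.27 and 0.47 in these comparisons. The ratio of *Cfb* to *Cfd* in TPM had geometric means of 0.517, 0.969 and 1.69 in the 3 groups, with overlap in every comparison (exact permutation p from 0.171 to 0.314).

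Factor D, also named adipsin, is secreted by adipocytes, and *Cfd* moved with markers of that cell type from heart to heart. The summed level of 7 adipocyte markers was 0.887, 6.32, 1.41 and 4.06 CPM in sham hearts 1 to 4, 3.44, 1.82, 1.67 and 1.14 CPM in day 1 AMI hearts, and 1.39, 4.44, 0.701 and 2.45 CPM in day 7 AMI hearts. In each group, the heart with the most *Cfd* was also the heart with the highest marker sum. No more than 3 of the 7 markers passed the filter on low counts, and 0 of 3 were called in any comparison. The part of this tissue in *Cfd* was not tested.

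**Figure D4:**
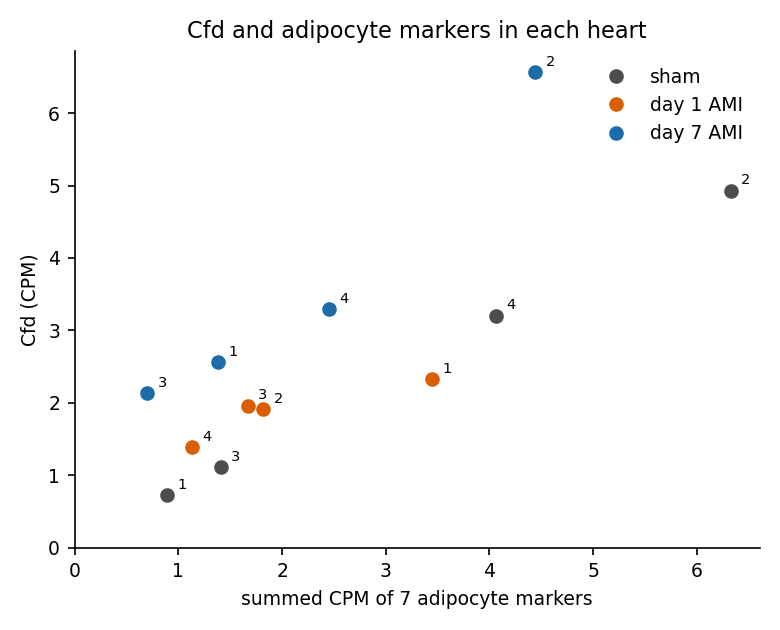
*Cfd* (y axis, TMM-normalized CPM) against the summed CPM of 7 adipocyte markers (x axis) in each of 12 hearts, coloured by group and numbered by replicate. Sham heart 2 (6.32 and 4.93 CPM) and day 7 heart 2 (4.44 and 6.57 CPM) lie at the upper right, and sham heart 1 (0.887 and 0.730 CPM) at the lower left.

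*C3ar1* and *C5ar1* encode the receptors through which C3a and C5a act on myeloid cells. *C3ar1* (ENSMUSG00000040552, chromosome 6, 122847138 to 122856161, minus strand, 2 merged exons) and *C5ar1* (ENSMUSG00000049130, chromosome 7, 16246743 to 16259540, minus strand, 3 merged exons) share no 75-base stretch with another gene. Both rose on day 1, by 3.59-fold and 4.11-fold, and neither step from day 1 to day 7 was called.

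*C3ar1* had 9.75, 6.28, 4.85 and 4.45 CPM in sham hearts, 21.9, 28.4, 17.5 and 22.8 CPM in day 1 AMI hearts, and 54.4, 38.1, 32.0 and 50.5 CPM in day 7 AMI hearts. The 3 groups were stacked without overlap. The log2 FC was 1.84 for day 1 against sham (standard error 0.239, edgeR adjusted p = 7.65e-05), 2.79 for day 7 against sham (0.242, edgeR adjusted p = 4.61e-07) and 0.95 from day 1 to day 7 (0.218, edgeR adjusted p = 0.00271), and the exact permutation p was 0.0286 in each. The last of these stayed under the FC of 2, although it was called without day 1 heart 2, day 7 heart 2 or day 7 heart 3, at 1.07, 1.01 and 1.07. *C3ar1* had the largest day 7 change of the 9 genes, 6.93-fold against sham.

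*C5ar1* had 5.84, 7.84, 3.64 and 3.44 CPM in sham hearts, 18.3, 28.2, 17.1 and 22.1 CPM in day 1 AMI hearts, and 19.0, 11.7, 9.33 and 14.4 CPM in day 7 AMI hearts. All AMI hearts were above all sham hearts, and day 7 heart 1 alone reached into the range of day 1. The log2 FC was 2.04 for day 1 against sham (standard error 0.272, edgeR adjusted p = 9.48e-05, exact permutation p = 0.0286) and 1.38 for day 7 against sham (0.272, edgeR adjusted p = 0.000540, exact permutation p = 0.0286). From day 1 to day 7 it was −0.65 (0.252, edgeR adjusted p = 0.0457, exact permutation p = 0.0857), past the adjusted p but under the FC of 2. It was the only one of the 9 genes with a negative value at this step.

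On day 7 all 4 hearts had more *C3ar1* per *C5ar1* than the other 8. In TPM, *C3ar1* per *C5ar1* was 0.556, 0.330, 0.523 and 0.457 in sham hearts, 0.399, 0.355, 0.410 and 0.382 on day 1, and 0.856, 1.12, 1.17 and 0.999 on day 7. Sham and day 1 hearts overlapped. The day 7 mean was 1.42 above day 1 and 1.17 above sham on the log2 scale (exact permutation p = 0.0286 for each, adjusted p = 0.0571), and the day 1 mean was 0.24 below sham (exact permutation p = 0.229, adjusted p = 0.289).

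With the deviations within all groups pooled, 8 of the 9 genes varied together from heart to heart, and *Cfd* did not follow them. Deviations of log2 CPM from the group mean were compared over 12 hearts, which share the library, its scaling and its depth, so these correlations are descriptions. For *C3*, *C4b* and *Cfb* the sham hearts weigh most, since these genes had a larger SD there than on day 1 or day 7. Correlations within a single group were not taken. Among the 8 genes Pearson r was from 0.461 (*C1qa* with *C3*) to 0.984 (*C1qb* with *C1qc*). It was 0.944 for *C1qa* with *C1qc* and 0.962 for *C1qc* with *C5ar1*. It was 0.955 for *C3* with *C4b*, 0.945 for *C3* with *Cfb* and 0.921 for *C4b* with *Cfb*. Between these groups of genes it was 0.820 for *C1qb* with *Cfb* and 0.796 for *C1qb* with *C4b*. Single hearts could part them. In day 7 heart 1 the C1q chains and both receptors were from 0.25 to 0.60 above their group means. In that heart *C3*, *C4b* and *Cfb* deviated by −0.65, −0.40 and −0.39. *Cfd* had r from −0.33 to 0.157 with the others. The SD of log2 CPM among sham hearts was 1.17 for *C3*, 1.58 for *C4b*, 1.34 for *Cfb* and 1.23 for *Cfd*. Of all genes tested, only 1.44%, 0.418%, 0.889% and 1.16% had an SD as large among sham hearts, and the median gene had 0.200. Highest over lowest sham heart was 4.35-fold for *C3*, 8.40-fold for *C4b* and 5.66-fold for *Cfb*, and among day 7 hearts it was 3.07-fold, 2.28-fold and 4.69-fold with heart 4 on top. Sham hearts 1 and 2 and day 7 heart 4 are also those with the most neutrophil markers and the most erythroid markers of their groups, the latter at 920 CPM in day 7 heart 4 and from 225 to 626 CPM in the other day 7 hearts. Sham hearts 1 and 2 also had the most macrophage markers of their group, 295 and 298 CPM against 232 and 215 CPM in sham hearts 3 and 4.

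**Figure D5:**
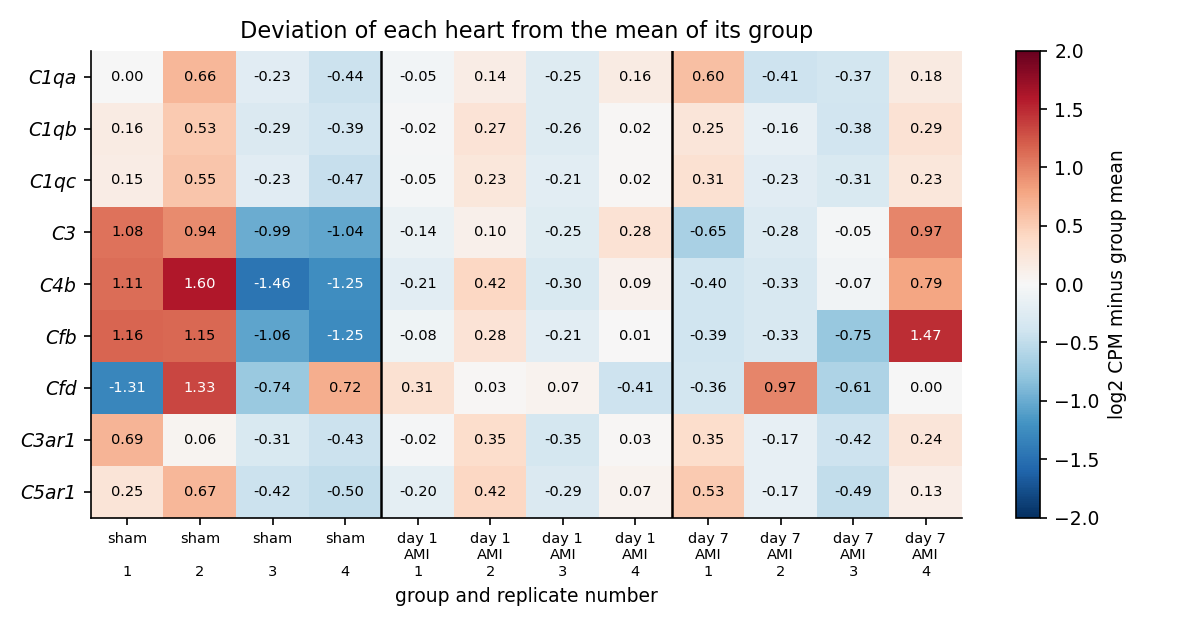
Log2 CPM of each gene minus the mean of its group (colour and printed value) in 12 hearts (columns, by group and replicate number). *C3*, *C4b* and *Cfb* are from 0.94 to 1.60 above the mean in sham hearts 1 and 2 and below it in sham hearts 3 and 4, day 7 heart 4 is 0.97, 0.79 and 1.47 above, and day 1 hearts differ by at most 0.42 from their mean.

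Of 43 further complement genes, 25 had enough counts to be tested. On day 1 against sham 5 were called higher and 0 lower, with a median log2 FC of −0.13. From day 1 to day 7 5 were called higher and 1 lower (median 0.18), and on day 7 against sham 7 were called higher and 1 lower (median 0.54). The called shares of all genes given above apply here too, and these genes were likewise chosen with earlier results known.

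Of the classical pathway proteases, 3 of 5 were tested, and those called rose late. *C1s1*, which cuts C4 and C2, had 19.3 ± 6.67, 15.4 ± 2.09 and 44.2 ± 18.6 TPM in sham, day 1 and day 7 hearts. It rose from day 1 to day 7 (log2 FC 1.21, standard error 0.216, edgeR adjusted p = 0.000426) but not against sham (0.71, edgeR adjusted p = 0.0105). Of its 75-base stretches, 24.8% are shared with *C1s2* and *Gm16567*. *C2*, the partner of C4 in the C3 convertase, rose by 1.98 on the log2 scale from day 1 to day 7 (edgeR adjusted p = 0.000533) and by 1.54 against sham (edgeR adjusted p = 0.00206), and 46.9% of its exon bases overlap other genes. *C1ra*, which activates C1s, had a log2 FC of 0.99 from day 1 to day 7 (edgeR adjusted p = 0.00340), just under the FC minimum, and 42.4% of its 75-base stretches are shared.

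In the lectin pathway, 3 of 8 genes were tested and 0 were called. *Colec11*, a collectin that recognises sugars, had a log2 FC of −0.89 on day 1 against sham (edgeR adjusted p = 0.00158) and 0.96 from day 1 to day 7 (edgeR adjusted p = 0.000647). *Masp1*, a protease of this pathway, had 0.68 on day 1 (edgeR adjusted p = 0.000418) and 0.84 on day 7 against sham (edgeR adjusted p = 2.37e-05). Of the terminal pathway, which builds the membrane attack complex, 2 of 7 genes were tested. *C7* had log2 FCs between −0.37 and 0.05, and *C8g* fell by 1.33 on the log2 scale on day 7 against sham (edgeR adjusted p = 0.0101). No sham heart held over 28 counts of it.

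Among soluble regulators, 6 of 9 were tested, and *Clu* (clusterin) was by far the most abundant complement gene of these hearts, with 490.4 ± 44.4, 1213 ± 248 and 2465 ± 334 TPM in the 3 groups. It rose on day 1 (log2 FC 1.00, standard error 0.144, edgeR adjusted p = 0.000143) and was 1.81 higher on day 7 than in sham (0.147, edgeR adjusted p = 2.70e-07). *Serping1*, the inhibitor of C1r and C1s, rose from day 1 to day 7 by 1.16 (edgeR adjusted p = 0.000437), with 103 ± 31.5, 84.8 ± 12.0 and 222 ± 54.7 TPM. *Cfp* (properdin), which stabilises the alternative convertase, rose on day 1 by 1.55 (edgeR adjusted p = 0.00256) and was lower on day 7 than on day 1 by just under the FC minimum (edgeR adjusted p = 0.0225). *Cfi*, the protease that inactivates C3b, was called higher on day 7 against both groups, from 0 to 4 counts in sham, 0 to 10 on day 1 and 12 to 24 on day 7.

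The membrane regulators, which shield host cells, had 5 of 6 genes tested and 1 called. *Cd55* rose by 1.32 from day 1 to day 7 (edgeR adjusted p = 0.000152) with 0.84 against sham (edgeR adjusted p = 0.00273). *Cd59a*, an inhibitor of the membrane attack complex, had −0.60 on day 1 and −0.67 on day 7 against sham (edgeR adjusted p = 6.16e-05 and 4.18e-06) and *Cr1l* −0.16 and −0.21 (edgeR adjusted p = 0.0815 and 0.0167), all within a FC of 2. Of the other receptors 6 of 7 were tested. *Itgam*, *Itgax* and *Itgb2*, subunits of the complement receptors CR3 and CR4, rose on day 1 by 2.60, 3.28 and 2.16 (edgeR adjusted p = 6.10e-05, 6.05e-06 and 6.55e-05) and were 1.53, 3.45 and 1.93 above sham on day 7 (edgeR adjusted p = 0.000843, 2.45e-07 and 3.17e-05). *Itgam* fell by 1.07 from day 1 to day 7 (edgeR adjusted p = 0.00925), and 68.7% of its exon bases are shared with an overlapping gene on the same strand. *Cd93*, named in early work as a C1q receptor, rose on day 7 against sham by 1.33 (edgeR adjusted p = 2.98e-07).

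Among all genes tested, those whose pattern was most like each of the 9 were sought in 2 ways over the 12 hearts, as a description. By the root-mean-square difference of centred log2 CPM, *C1qb* was nearest to *C1qc* (0.122) and then to *Lgals3bp* (0.137) and *Lsp1* (0.168). *C1qc* was nearest to *C1qb*, *Lsp1* (0.172) and *Lrp1* (0.173), and *C1qa* to *Lrp1* (0.177), *Kcnk6* (0.185) and *Stab1* (0.197). For *C5ar1* the nearest genes were *Mmp19* (0.196), *Kcnab2* (0.197) and *Cotl1* (0.210), and for *C3ar1* they were *Ifi209* (0.215), *Ctss* (0.225) and *Cd84* (0.226). Those nearest to *C3* were *Gbp6* (0.345), *Cadm3* (0.357) and *Lgi2* (0.364), and those nearest to *Cfb* were *Zbp1* (0.440), *Fcgr4* (0.473) and *Phf11a* (0.523). *C4b* and *Cfd* had no gene nearer than 0.369 (*Gm37303*) and 0.480 (*Gata5*).

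By the correlation of deviations from group means, *C3* was closest to *C1s1* (r = 0.971), *Lgi2* (0.959) and *Serping1* (0.957), *C1s1* being a protease of the classical pathway and *Serping1* encoding its inhibitor. *C4b* was closest to *Serpina3n* (0.975), *Gabre* and *Mrm3*, and *Cfb* to *Apol11b* (0.978), *Lgi2* and *Inip*. *Cfd* was closest to *Car3* (0.888) and to *Adipoq* (0.884), the adipocyte hormone adiponectin, and then to *Neu1*. *C1qb* was closest to *C1qc*, *Mcub* and *Fermt3*, *C1qc* to *C1qb*, the integrin *Itgb2* (0.972) and *Cfp* (0.971), and *C1qa* to *Cotl1* (0.959), *Sirpa* and *Arpc1b*. *C3ar1* was closest to *Tlr13* (0.975), *Selplg* and *Lrrc41*, and *C5ar1* to *Mcub* (0.966), *C1qc* and *C1qb*.

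Marker lists of other cells moved with some of these changes. The 8 macrophage markers summed to between 215 and 298 CPM in sham hearts, 386 and 581 CPM on day 1, and 624 and 920.0 CPM on day 7, without overlap. Of them 4 were called higher on day 1 against sham, 0 from day 1 to day 7 and 6 on day 7 against sham, with median log2 FCs of 1.00, 0.47 and 1.48. *Lyz2* made up most of the day 7 sum, with a mean of 506 CPM. *Cd163* went the other way, with a log2 FC of −0.69 on day 7 against sham (edgeR adjusted p = 0.0112). From day 1 to day 7 *Fcgr1* and *Cd14* had −0.04 and −0.05. The 7 neutrophil markers summed to between 47.0 and 166 CPM on day 1 and 8.15 and 39.0 CPM on day 7, and 4 of the 6 tested fell from day 1 to day 7, the step at which *C5ar1* had −0.65. On day 1 against sham 3 of the 6 were called higher. On day 7 against sham 1 was called higher and 1 lower, with a median log2 FC of −1.09, where *C5ar1* had 1.38. The 7 fibroblast markers summed to between 1066 and 1311 CPM in sham, 1666 and 2297 CPM on day 1, and 6896 and 14373 CPM on day 7. *Col1a1*, *Col1a2* and *Col3a1* made up most of the day 7 sum, with means of 2892, 2524 and 3671 CPM. In this list 3 genes were called higher on day 1 against sham, 6 from day 1 to day 7 and 5 on day 7 against sham. *Pdgfra* had a log2 FC of only 0.08 from day 1 to day 7, and *Dcn* had −0.72 on day 1 against sham (edgeR adjusted p = 0.000682). The 4 mesothelial markers summed to between 10.1 and 22.1, 6.53 and 17.8, and 22.5 and 32.3 CPM, the 4 endothelial markers to between 677 and 754, 535 and 580.4, and 898 and 991 CPM, and the 4 B cell markers to between 1.60 and 5.41 CPM over all hearts. The sums of the 6 cardiomyocyte markers were higher in every sham heart than in any AMI heart, while day 1 heart 2 lay below day 7 heart 3. These markers had median log2 FCs of −0.58, −0.34 and −1.09, with 0 called in the first 2 comparisons. *Myh6*, *Tnnt2*, *Tnni3* and *Pln* fell on day 7 against sham on the TMM scale. With library sizes alone the medians were −0.30, −0.21 and −0.69, 0 of the 6 were called in any comparison and *Actc1* turned above 0 in all 3. Of 5 hepatocyte markers *Alb* and *Serpina1a* were at 0 in all 12 hearts, and the sum of the list was at most 0.452 CPM. The part of these cell types in the changes of the 9 genes was not tested.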

How the data were processed

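RNA was measured in 12 mouse hearts, 4 in each of 3 groups taken from the labels. Per the labels and the study's methods, the authors called bases with CASAVA 1.8, trimmed paired-end reads, aligned them to GRCm38 (mm10) with STAR 2.4.0j and used RSEM for gene levels. Counts are used as the authors deposited them, in whole reads per gene and not normalized. The deposited TPM come from RSEM and are scaled for length and library. The tool and strand behind the counts are not given in the sources used here, so reads of overlapping genes cannot be assigned.

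Counts were fitted in edgeR 4.0.16 (R 4.3.3) with TMM factors, filterByExpr by group and a quasi-likelihood fit of the 12 hearts in 3 groups, and p-values were adjusted over all 15306 genes tested. Log2 CPM used a prior count of 2. Exact permutation tests used SciPy 1.17.1, and standard errors are those implied by the F statistic. Shared sequence was counted as 75-base stretches of exons in GENCODE M21. Promoter sequences of 6 of the 9 genes were found in RefSeq. Depth was from 23204551 to 32166517 counts, and the floor of 3 counts and the Poisson intervals cover counting error only. Any pair of libraries within a group differed with a chi-square of at least 9.41 per degree of freedom, so no library repeats another.

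The alternatives were DESeq2 1.42.0, RLE size factors, library sizes alone, no filter, limma 3.58.1 on log2(TPM + 1) or log2(TPM + 0.1) (genes with at least 1 TPM in 4 hearts, or no filter), only the 2 groups compared, a replicate block, no FC minimum, each heart left out, and CPM in place of TPM for ratios. On simulated counts with 200 of 15306 genes changed by a log2 FC of 2 between day 1 AMI and sham, edgeR recovered 199 with 5 false calls, DESeq2 198 with 6 and limma 197 with 1. limma was run there on CPM in place of TPM. So few genes changed, and by so much, that the simulation cannot judge the choice of scaling or calls near a FC of 2.

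The 9 genes, the 43 further complement genes and the marker lists were chosen with earlier results of these data known. Named are the 9 genes, the 2 most abundant genes of each role and every called gene of the further list, and for each of the 9 genes the 3 nearest genes by each measure of likeness.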

Additional observations from a re-analysis of the deposited data

Results flagged for a closer look

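*Cfb* was the only gene of the 9 for which the effect of AMI against sham differed between day 7 and day 1 by the criterion of a called difference. The day 7 effect was 1.58 larger on the log2 scale than the day 1 effect (edgeR adjusted p = 0.0217), and 4 of 4 day 7 hearts were above every day 1 heart. Since both effects use the same sham hearts, this is the step from day 1 to day 7. It was 0.80 without day 7 heart 4 (edgeR adjusted p = 0.148). The call was also lost without day 1 heart 1 or day 1 heart 3. At this step *C1qb* (0.90), *C3ar1* (0.95) and *C1qc* (0.77) had smaller edgeR adjusted p (0.00189, 0.00271 and 0.00511) and missed only the FC of 2. *C1qb* and *C3ar1* were called with library sizes alone (1.03 and 1.08) and in the limma fits, which use no TMM factors. In 45 checks of the lowest and highest heart of a group by Dixon's test on the log2 scale, 0 passed the 95% critical value. On the linear scale, added after the data had been seen, 2 of 45 passed, where chance gives about 1 in 20. The *Cfb* level of day 7 heart 4 stood apart, with a gap to the next heart of 0.906 of the range of the group. So did the ratio of *Cfb* to *Cfd* in TPM of sham heart 1, at 0.877 of the range.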

How the results depend on the processing

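Of the log2 FCs of the 9 genes under 21 alternatives each, 181 of 189 kept their direction and their side of the threshold for day 1 against sham, 174 for day 7 against day 1 and 168 for day 7 against sham. The calls of *C3ar1* and *C5ar1* against sham, on day 1 and on day 7, were kept under every alternative run, as were those of *C1qb* and *Cfb* on day 7 against sham. Where values moved, the cause was not tested unless the alternative itself sets it. Depth limits *Cfd* and *Cfb* most.

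Numbering did not pair hearts: deviations of same-numbered hearts correlated from −0.244 to 0.229 over 12 pairs, and a heart correlated best with its own number in 5 of 24 cases. With the replicate block, 2, 1 and 5 of the 9 genes were called higher in the 3 comparisons, as without it. All genes called higher and lower were 1180 and 441 on day 1 against sham, 1304 and 392 from day 1 to day 7, and 2341 and 899 on day 7 against sham. The block put *C3* on day 7 against sham at 0.00 and called 2 further complement genes lower from day 1 to day 7.

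With each heart left out, the 9 genes gave 2 calls on day 1, from 0 to 3 from day 1 to day 7 and from 4 to 6 on day 7 against sham. The further complement genes called lower numbered from 0 to 2, from 0 to 2 and from 1 to 2. The log2 ratio of *C3* to *C4b* from day 1 to day 7 was between −0.16 and 0.06, and turned above 0 without day 7 heart 1 (0.06), day 1 heart 1 (0.01) or day 1 heart 4 (0.01). On day 1, *C4b* ranged from −0.65 to 0.29 and *Cfd* from −0.71 to 0.16, turning above 0 without sham heart 2. *C3* on day 7 against sham ranged from −0.51 to 0.29 and turned to 0.29, 0.20, 0.11 and 0.04 without sham heart 1, sham heart 2, day 7 heart 1 or day 7 heart 2.

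With library sizes alone, all genes called lower were 217 on day 1, and 3633 were called higher and 318 lower on day 7 against sham. The 9 genes gave 3 calls from day 1 to day 7, the further genes 8 higher and 0 lower from day 1 to day 7 and 11 higher and 0 lower on day 7 against sham, and *C3* turned to 0.35. With limma on log2(TPM + 1), 64 genes were called lower on day 1, 134 from day 1 to day 7 and 113 on day 7 against sham, with log2(TPM + 0.1) 122, 181 and 179, and with log2(TPM + 1) and no filter 64, 126 and 112. The pseudocount of 0.1 gave 3575 genes called higher on day 7 against sham. In all 3 limma fits the 9 genes gave 3 calls from day 1 to day 7, and the further genes 9 higher and 0 lower there and 12 higher and 0 lower on day 7 against sham. The filtered limma fits called 8 of the 9 genes on day 7 against sham, where their median gene stood at 0.47 and 0.55 with pseudocounts of 1 and 0.1. With pseudocounts of 1 and 0.1, *C4b* on day 1 turned to 0.46 and 0.57, *Cfd* on day 1 to 0.15 and 0.27, and *C3* on day 7 to 0.72 and 0.74, and without the filter they were at 0.46, 0.15 and 0.72.

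Without a FC minimum, 3360 genes were higher and 3043 lower on day 1, 3701 and 3496 from day 1 to day 7, and 4728 and 4353 on day 7 against sham. The 9 genes then gave 4 higher and 1 lower from day 1 to day 7, and the further genes 8 and 5, 11 and 2, and 13 and 4 in the 3 comparisons. DESeq2, RLE size factors, the fit without the filter on low counts and the fit of only the 2 groups compared each called 2 further genes lower from day 1 to day 7. With CPM in place of TPM, the log2 ratio of *C3* to *C4b* on day 7 against sham was −0.94 (exact permutation p = 0.0286).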

Other observations

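Of the 43 further complement genes, 18 had too few counts to be tested. *Mbl1*, *Mbl2*, *C8b*, *C4bp* and *Cd55b* were listed at 0 counts in all 12 hearts. *Hc*, which encodes C5, had at most 2 counts in a sham heart, 4 on day 1 and 12 on day 7, while its receptor *C5ar1* had from 72 to 945 counts. *C6*, of the terminal pathway, had at most 7 counts in a sham or day 1 heart and at most 23 on day 7, and *Masp2* at most 8 in any heart, with 51.4% of its 75-base stretches shared with *Tardbp*.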
